A study of Rattus norvegicus with 12 samples.

Results

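The H4K5ac peaks of primary vascular smooth muscle cells (VSMCs) were compared between the conditions labelled SIANK and NC. They were taken as the 4 peak lists that carry the H4K5ac label, with 2 libraries of each condition, and hold 2650 of the 94690 peaks of the series (2.80%). The series profiled 3 acetylation marks in rat VSMCs by CUT&Tag, an assay in which an antibody to a chromatin mark tethers a transposase that cuts and tags the DNA beside it. The title places the work in aneurysmal aortas, and all groups share one cell type label, primary vascular smooth muscle cell. The labels do not spell out NC or SIANK and give no strain, age, dose or time, nor do they say whether replicates were separate cultures or animals. Each p-value is thus limited to how far these libraries lie apart, and that spread may be technical.

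H4K5ac is acetylation of lysine 5 in the tail of histone H4. Histone acetyltransferases write acetyl marks, and histone deacetylases remove them. Acetylation at this residue is found on newly made histone H4 and at active promoters and enhancers. VSMCs contract the arterial wall and can lose their contractile programme in diseased vessels. The other marks of the series, H3K23ac and H3K27ac, are acetylated lysines of histone H3, and H3K27ac is widely used to mark active enhancers and promoters.

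More H4K5ac peaks were listed in each SIANK library than in either NC library. NC libraries 1 and 2 held 100 and 371 peaks, and SIANK libraries 1 and 2 held 468 and 1711. Library 2 had 3.71 times as many peaks as library 1 in NC and 3.66 times as many in SIANK. Within a number, SIANK exceeded NC by 4.68 and 4.61 times, while SIANK 1 exceeded NC 2 by 1.26 times. Means were 1090 ± 879 peaks in SIANK and 236 ± 192 in NC (SD, n = 2 each). On the log2 scale the difference was 2.22 (SE 1.33), and the exact two-sided permutation test gave p = 0.333, the smallest that 2 lists against 2 allow. Without SIANK 2 the log2 difference was 1.28, and without NC 1 it was 1.27. Without NC 2 it was 3.16, and without SIANK 1 it was 3.15.

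The DNA under H4K5ac peaks followed the same order. The lists covered 44.9 and 184 kb in NC and 242 and 944 kb in SIANK, a log2 difference of 2.39 (SE 1.42, exact permutation p = 0.333). The median peak length was 405 bp in NC 1, 427 bp in NC 2, 453 bp in SIANK 1 and 468 bp in SIANK 2. The groups did not overlap, but the 44.5 bp between their means (SE 13.3) again had an exact permutation p of 0.333. Peaks of at least 1 kb made up 1.00% and 3.50% of the NC lists and 3.63% and 6.20% of the SIANK lists. The peak lists give no read counts, so the depth behind them is unknown, and the number of reads cannot be told apart from the condition as a source of list length.

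H4K5ac peaks were shorter than those of both other marks in every list. The median length per list ranged from 405 to 468 bp for H4K5ac, from 691 to 830 bp for H3K23ac and from 608 to 790 bp for H3K27ac. H4K5ac lists averaged 438 ± 27.9 bp against 749 ± 62.2 bp for H3K23ac and 716 ± 86.8 bp for H3K27ac (SD, n = 4 lists each). The exact two-sided permutation test over lists gave p = 0.0286 against each mark, the smallest that 4 lists against 4 allow. The difference had that same p with any single H4K5ac list left out, which is again the smallest that the remaining lists allow. H4K5ac lists also held far fewer peaks, 2650 in all against 55126 for H3K23ac and 36914 for H3K27ac. Among the H4K5ac lists the median length rose with the number of peaks. List size and unknown depth therefore cannot be told apart from the mark as a source of this difference.

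Most H4K5ac regions rested on the SIANK 2 list alone. Peaks of the 4 lists that overlapped by at least 1 bp merged into 1850 regions, and 1185 of these (64.1%) held a SIANK 2 peak and no other. SIANK 2 had a peak in 1711 regions (92.5%) and in 526 of the 533 regions found in 2 or more lists (98.7%). Regions present in both SIANK lists and in neither NC list numbered 213 (11.5% of all merged regions), and the reverse pattern was seen in 2 (0.108%). Regions present in NC 2 and SIANK 2 but in neither number 1 list numbered 112. All 4 lists shared 67 regions (3.62%). Of the 392 regions with an NC peak, 318 (81.1%) also had a SIANK peak.

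**Figure D1:**
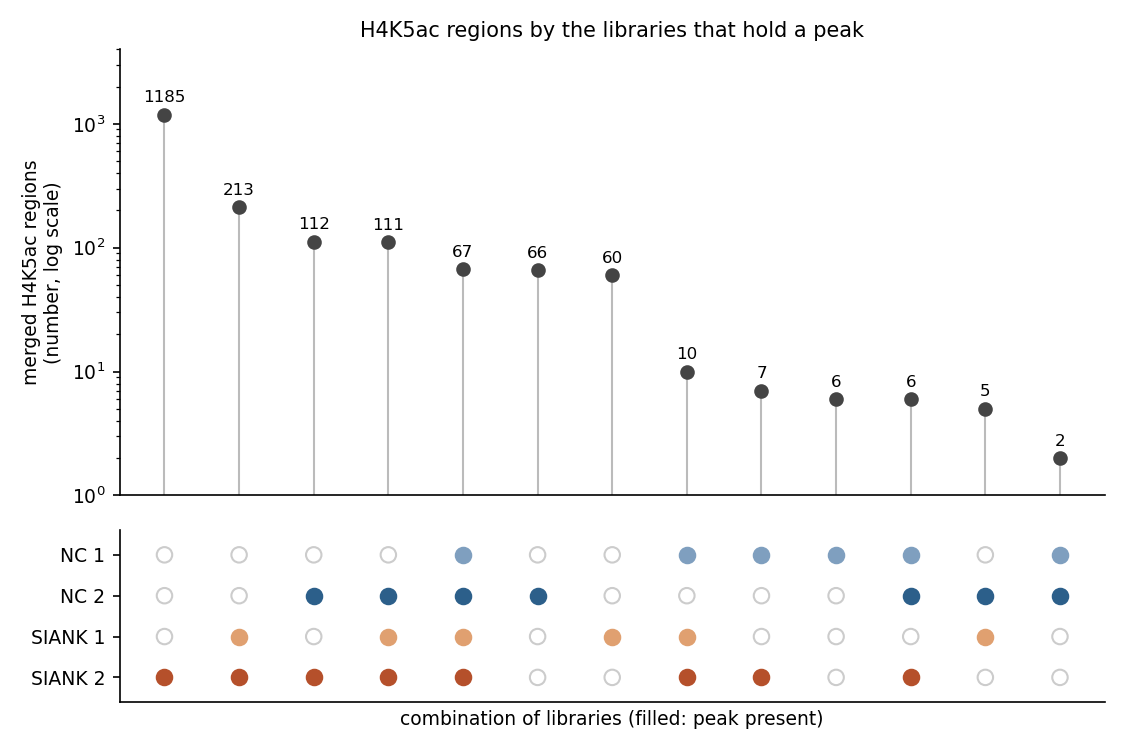
Merged H4K5ac regions (vertical axis, number on a log scale) for each combination of libraries, with filled circles under each point marking the libraries that hold a peak. SIANK 2 alone holds 1185 regions, both SIANK libraries without NC hold 213, and both NC libraries without SIANK hold 2.

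Counts of condition-restricted regions were larger or unchanged with single lists left out, but leaving out a list also loosens the rule. Fewer lists then have to hold a peak or to lack one, so such counts tend to rise by construction. Without SIANK 1, 1398 regions counted as present in SIANK and absent from NC, and without NC 2 there were 324. Regions present in NC and absent from SIANK numbered 68 without NC 1, and 8 without NC 2 or without SIANK 2. When the 100 longest peaks of each list were used, as many as NC 1 holds, 13 regions were restricted to SIANK and 12 to NC. The excess of SIANK-restricted regions was thus seen with the lists as deposited. Equal lists hold the same number of peaks in each condition, which by construction draws these counts together. They also set unlike peaks side by side, of at least 277 bp in NC 1 and at least 1021 bp in SIANK 2. Whether list length accounts for the excess was not tested.

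Short H4K5ac lists lay largely within long ones. Of the 100 NC 1 peaks, 92 (92.0%, exact 95% binomial interval 84.8 to 96.5) overlapped a SIANK 2 peak, and 84 lay wholly inside one. SIANK 2 also held 80.3% of NC 2 peaks (75.9 to 84.2) and 86.1% of SIANK 1 peaks (82.6 to 89.1). In the other direction, NC 1, NC 2 and SIANK 1 held 5.26%, 17.3% and 23.4% of the SIANK 2 peaks. Of the shorter lists within longer ones, the pair of most similar length nested least: SIANK 1 held 182 of the 371 NC 2 peaks (49.1%), and NC 2 held 38.9% of SIANK 1. These intervals cover counting error over peaks and not the spread between libraries. Among the 100 longest peaks of each list, the median share of one list found in another was 41.0%, against 79.2% for the shorter in the longer list as deposited.

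Long peaks recurred more often than short ones. The SIANK 2 list was divided by peak length into 4 bins of nearly equal number. Of its shortest bin (294 to 369 bp), 0 of 428 peaks were found in NC 1, 4.21% in NC 2 and 5.37% in SIANK 1. For the longest bin (646 to 2364 bp) these shares were 17.5%, 41.4% and 51.6%. NC 2 and SIANK 1, divided in the same way, had the same order, and the short NC 1 list was not divided. SIANK 2 held 63.4% of the shortest and 96.8% of the longest NC 2 bin, and 69.2% and 98.3% of the corresponding SIANK 1 bins. Regions in both SIANK lists but no NC list were intermediate: their SIANK 2 peaks had a median of 586.0 bp, against 422.0 bp where SIANK 2 stood alone and 974.0 bp in the regions of all 4 lists. Regions shared by NC 2 and SIANK 2 alone had SIANK 2 peaks of nearly the same median length, 586.5 bp.

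**Figure D2:**
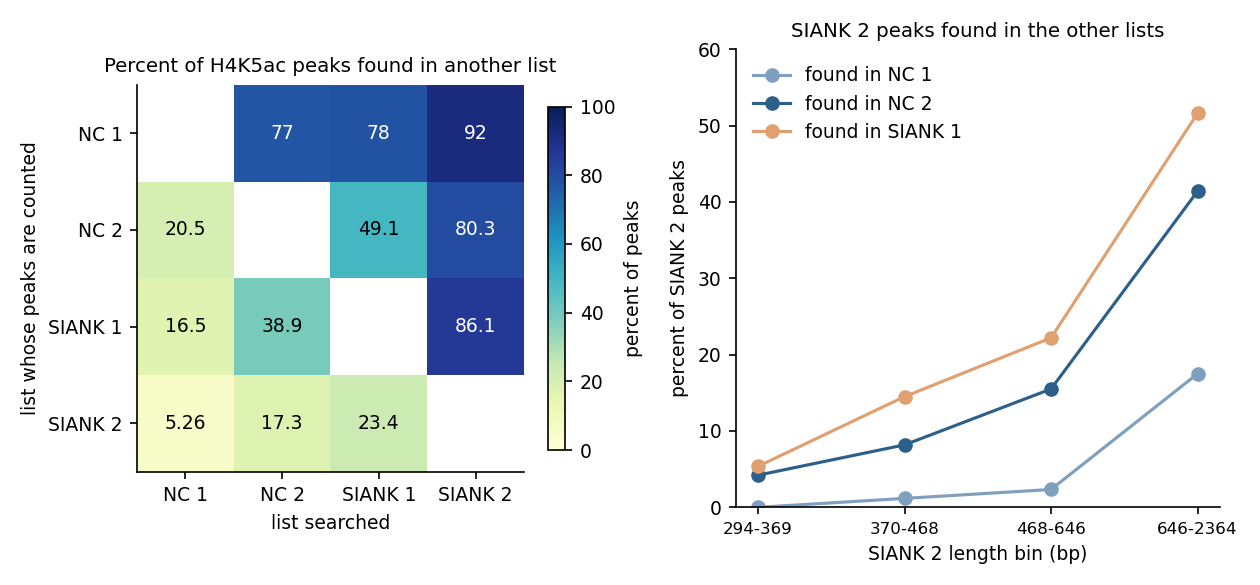
Left, percent of the H4K5ac peaks of each list (rows) overlapped by a peak of another list (columns). Right, percent of SIANK 2 peaks found in each other list, by bin of SIANK 2 peak length in bp. The SIANK 2 column holds the highest value of each other list's row (80.3 to 92.0%), and each line is highest in the longest bin.

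At places marked in every library, SIANK peaks were mostly the longer ones. Exactly 1 H4K5ac peak per library was present at 64 of the 67 shared regions. In NC 1 these peaks ran from 277 to 1290 bp with a median of 424.0 bp, and in NC 2 from 298 to 1619 bp with a median of 604.5 bp. In SIANK 1 they ran from 322 to 1609 bp with a median of 643.5 bp, and in SIANK 2 from 390 to 2364 bp with a median of 969.0 bp. Both SIANK peaks were longer than both NC peaks at 32 of the 64 regions (50%), and both were shorter at 0. The same order was seen at 37.2% of 6342 such H3K23ac regions and at 14.1% of 1998 such H3K27ac regions. The difference in log2 geometric mean length was 0.59 (SE 0.35, exact permutation p = 0.333), a ratio of 1.51.

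Those lengths were ordered like the list sizes. SIANK 2 held the longest peak at 57 of the 64 regions and NC 1 the shortest at 51. Between NC 2 and SIANK 1, whose lists differ least in size, SIANK 1 was longer at 36 regions and NC 2 at 28. Over all 181 regions where both had a single peak, SIANK 1 was longer at 55.2%, with a median ratio of 1.02. SIANK 2 was longer than SIANK 1 at 84.5% of 399 such regions, with a median ratio of 1.33, and NC 2 was longer than NC 1 at 80.6% of 72, with a median ratio of 1.41. The median ratios of a SIANK to an NC library ran from 1.02 to 2.16, so that the ratios within each condition lay inside the range between conditions. The log2 difference was 0.34 without NC 1, 0.36 without SIANK 2, 0.86 without NC 2 and 0.85 without SIANK 1.

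**Figure D3:**
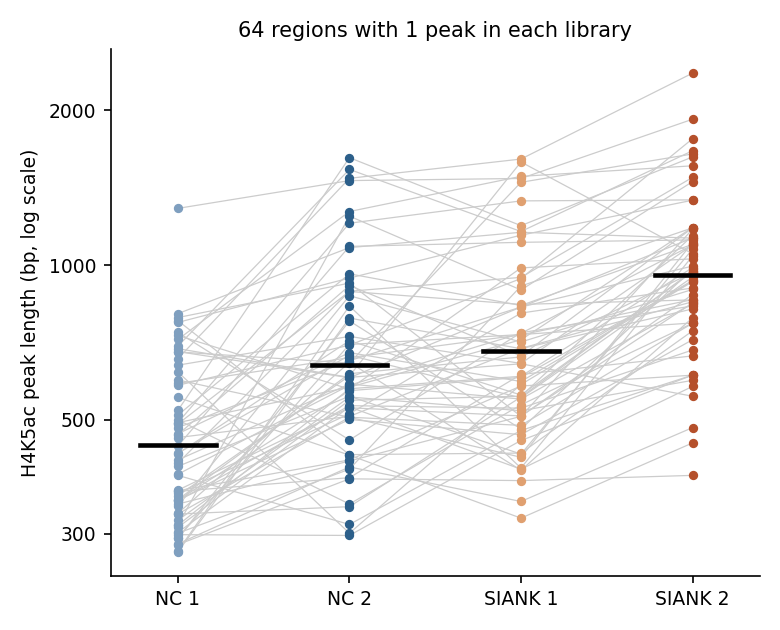
H4K5ac peak length (bp, log scale) at the 64 regions with 1 peak in each library. Points are regions, grey lines join the same region across libraries, and black bars are geometric means of 448, 638, 680 and 956 bp from left to right.

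The top-ranked shared regions give the lengths place by place, and not all of them followed the order of the list sizes. Regions were ranked by their lowest within-list percentile of peak length, and positions are those of the deposited lists, whose build is not given in the sources used here. At chr4:174244224-174246146 the peaks measured 1290 and 1461 bp in the NC libraries and 1475 and 1923 bp in the SIANK libraries. H3K23ac was present there in all 4 of its libraries, in a region of 2272 bp. At another place on the same chromosome, chr4:174172509-174174154, the NC peaks were 678 and 645 bp and the SIANK peaks 1450 and 1646 bp. There each SIANK peak was much longer than each NC peak. At chr17:80733902-80735110 the groups lay close, with 805 and 1082 bp in the NC libraries and 1159 and 1129 bp in the SIANK libraries, and SIANK 1 held the longest peak. At chr9:10240007-10242242 the groups overlapped, with 696 and 1536 bp in the NC libraries and 1163 and 1670 bp in the SIANK libraries. The longest H4K5ac peak of any list, 2364 bp in SIANK 2, lay at chr3:110069734-110072097, where NC 1 had 658 bp, NC 2 had 1476 bp and SIANK 1 had 1609 bp. H3K23ac was listed there in NC 1 only and H3K27ac in SIANK 2 only. Of these 10 top-ranked regions, 5 had H3K23ac in all 4 libraries, and none lacked both other marks.

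Among the 10 top-ranked regions restricted to SIANK, 4 had neither other mark in any library. The longest, chr3:146384249-146386511, had peaks of 1783 and 2263 bp and lay 20.2 kb from the nearest H3K23ac region. The next, chr4:148150057-148152238 (991 and 2182 bp) and chr6:138071172-138072234 (954 and 1063 bp), lay 9.96 and 12.9 kb from H3K23ac. The fourth, chr2:18819243-18820253, had peaks of 750 and 1011 bp and lay 1.03 kb from H3K23ac. It sits beside a region of all 4 H4K5ac lists, chr2:18820751-18822512, whose peaks were 584 and 699 bp in the NC libraries and 942 and 1762 bp in the SIANK libraries. At chr10:103374860-103376099 the SIANK peaks of 884 and 1240 bp lay on H3K23ac found in all 4 libraries of that mark. The same held for chr19:56271179-56272367 (788 and 1148 bp), where H3K27ac was also found in all 4 of its libraries. There the other marks were listed in both conditions while H4K5ac was listed in SIANK alone.

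The 2 regions restricted to NC had short peaks. At chr10:86018529-86019005 they measured 442 and 375 bp, and H3K23ac was present in all 4 libraries. At chrX:361696-362009 they measured 302 and 313 bp, with no other mark and the nearest H3K23ac region 531 kb away. Peaks found in NC 1 alone were 6, of which 5 had neither other mark. The longest was 917 bp at chr14:94553197-94554113. The longest peak found in 1 list only was 619 bp for NC 2, 541 bp for SIANK 1 and 1583 bp for SIANK 2. The last lay at chr7:143234958-143236540, on H3K23ac present in all 4 libraries. Regions of a single list numbered 66 for NC 2, 60 for SIANK 1 and 1185 for SIANK 2, so these maxima come from sets of unlike size.

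H4K5ac peaks were spread over all autosomes, and the share with a close neighbour was highest in the longest list. Among peaks on chromosomes 1 to 20, 8.42% and 17.0% of the NC lists and 13.1% and 35.4% of the SIANK lists had another peak of the same list within 100 kb. The difference of 11.5 percentage points (SE 12) lay within the spread (exact permutation p = 0.667), and with single lists left out it ran from 0.345, without SIANK 2, to 22.7, without SIANK 1. Within 10 kb the difference was 1.01 points. Within 1 Mb the shares were 18.9% and 40.1% in NC and 42.5% and 83.8% in SIANK, which did not overlap, a difference of 33.6 points (exact permutation p = 0.333). The median gap to the nearest peak was 8.51 and 1.47 Mb in NC and 1.28 and 0.221 Mb in SIANK. A longer list brings peaks closer together by construction. For the 100 longest peaks of each list the shares within 100 kb were 8.42% and 4.17% in NC and 8.25% and 14.4% in SIANK. Within 1 Mb those peaks had shares of 18.9% and 4.17% in NC and 12.4% and 21.6% in SIANK, so the groups overlapped. H3K23ac lists cut to their longest peaks, as many as in the matching H4K5ac list, had higher shares within 100 kb than the whole H4K5ac lists. These were 23% and 26.7% in NC and 37.5% and 50.2% in SIANK. The H3K27ac counterparts had 4.04% and 22.4%, then 21.2% and 52.9%. The other marks enter with the longest peaks of larger lists and H4K5ac with whole lists, so these shares cannot rank the marks.

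Clusters of at least 3 H4K5ac regions with gaps of at most 100 kb numbered 78 and held 270 of the 1826 autosomal regions (14.8%). Of these clusters, 55 had exactly 3 regions, 45 had an NC peak and 13 held a region of all 4 lists. H3K23ac of any library was present at 78.1% of clustered and 69.7% of the other autosomal regions. The largest cluster, chr6:109109668-109313304, held 9 regions over 204 kb, of which 2 had a peak in NC 1, 3 in NC 2, 4 in SIANK 1 and all 9 in SIANK 2. The next, chr9:93461082-93544946, held 6 regions in 83.9 kb, all with SIANK 2 peaks, 1 with a SIANK 1 peak and 0 with an NC peak. A cluster of 6 at chr20:10641026-10907206 had SIANK peaks only. Clusters of 5 numbered 4. NC 2 was present at 1 region of those at chr9:98551618-98641715 and chr8:70698723-70789001, at 2 regions of chr3:13800209-13932458 and at 0 of chr4:157779501-157987894. Regions found in SIANK 2 alone made up 63.7% of clustered regions and 64.2% of all autosomal ones, a similar share. An all-4 region lay within 100 kb of 8 of the 208 autosomal SIANK-restricted regions (3.85%) and of 6 of the 112 shared by NC 2 and SIANK 2 (5.36%).

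The density of H4K5ac varied less between chromosomes than that of H3K23ac. Merged H4K5ac regions ranged from 5.18 per 10 Mb on chromosome 2 to 9.56 on chromosome 19, a 1.85-fold range. H3K23ac regions ranged 2.99-fold, from 53.1 on chromosome 15 to 159 on chromosome 10. Chromosome length was taken as the farthest peak of any of the 12 lists. Over the 20 chromosomes, the number of H4K5ac regions had a Pearson r of 0.93 with chromosome length and of 0.93 with the number of H3K23ac regions. These are descriptions, since counts of both marks share chromosome length. Chromosome 10 held 5.34 to 6.20% of the peaks of NC 2 and the SIANK lists and 4.00% of NC 1, against 8.37 to 9.13% of the H3K23ac lists, with means of 5.32% and 8.72%. The difference of means, H4K5ac minus H3K23ac, was -3.41 percentage points on chromosome 10, -0.999 on chromosome 12 and 2.49 on chromosome 4. Of 20 exact permutation tests of 4 H4K5ac against 4 H3K23ac lists, 9 gave the smallest possible p of 0.0286, but after Benjamini-Hochberg adjustment none passed (exact permutation, adjusted p = 0.0635 for each of the 9).

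**Figure D4:**
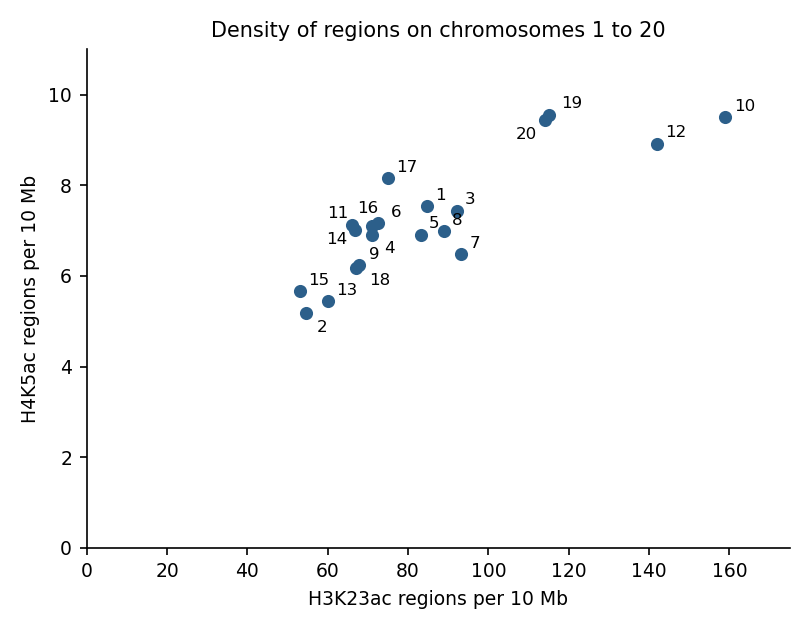
Merged H4K5ac regions per 10 Mb (vertical axis) against merged H3K23ac regions per 10 Mb (horizontal axis); each point is 1 of chromosomes 1 to 20, labelled by number. Chromosome 10 has the highest H3K23ac density (159) with an H4K5ac density of 9.5, close to that of chromosome 19 (9.56).

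SIANK-restricted H4K5ac regions followed the chromosomes in proportion to all H4K5ac regions (Pearson r = 0.91 over 20 chromosomes, where the restricted regions are part of the whole). Chromosome 1 held 33 of them, 15.5% of its 213 H4K5ac regions. The share was highest on chromosome 20 (17.0%) and lowest on chromosome 14 (4.94%, or 4 of 81). Chromosome 4 held 11 of the 67 regions of all 4 lists and chromosome 2 held 8, while chromosome 14 held 0.

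Most H4K5ac peaks of each list lay on H3K23ac or H3K27ac. An H3K23ac region of any library was overlapped by 75% of NC 1 peaks (exact 95% binomial interval 65.3 to 83.1), 74.7% of NC 2 (69.9 to 79.0), 72.4% of SIANK 1 (68.1 to 76.4) and 71.6% of SIANK 2 (69.4 to 73.7). Both SIANK values lay just below both NC values. The difference was -2.82 percentage points (SE 0.453, exact permutation p = 0.333). For H3K27ac of any library the shares were 72.0% and 73.3% in NC and 67.5% and 67.9% in SIANK, a difference of -4.97 points (SE 0.679, exact permutation p = 0.333). For H3K23ac regions found in all 4 libraries of that mark, called constant here, they were 45.0% and 46.1% in NC and 41.0% and 43.4% in SIANK. In SIANK 2, 64.7% of the shortest and 78.5% of the longest bin overlapped H3K23ac, and 37.4% and 54.2% overlapped constant H3K23ac. The NC 2 bins were similar (66.7% and 84.9% on H3K23ac), but in SIANK 1 the shares on H3K23ac of any library were 72.6% and 70.9%, with no such gradient. On constant H3K23ac the shortest and longest bins had 36.8% and 47.9% in SIANK 1, and 40.9% and 53.8% in NC 2. The differences between conditions depended on which peaks were used. A minimum of 457.0 bp, the pooled median, left 33 and 163 peaks in the NC lists and 229 and 902 in the SIANK lists. Among these peaks the difference was -9.04 points for H3K23ac of any library, -9.03 for H3K27ac of any library and -5.13 at constant H3K23ac. With 100 peaks per list it was -1.50 for H3K23ac of any library, 0 for H3K27ac of any library and 6.50 at constant H3K23ac, with SIANK the higher.

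Overlap with H3K27ac of the same condition and number differed far more between replicate numbers than between conditions. H4K5ac peaks overlapped H3K27ac of their own condition and number at 15% in NC 1 and 18.4% in SIANK 1, against 65.5% in NC 2 and 63.9% in SIANK 2. The number 1 lists of H3K27ac are the short ones. Over all merged H4K5ac regions, H3K27ac was listed at 10.7% in NC 1 and 19.4% in SIANK 1. In number 2 it was listed at 59.2% in NC and 62.8% in SIANK, so SIANK was the higher within each number. For H3K23ac the matching shares were 60%, 55.3%, 53.0% and 67.7% for NC 1, NC 2, SIANK 1 and SIANK 2. Of the 768 H4K5ac regions with H3K23ac in all 4 libraries, 456 had H3K27ac in both number 2 libraries and in neither number 1 library, and 165 had it in all 4.

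**Figure D5:**
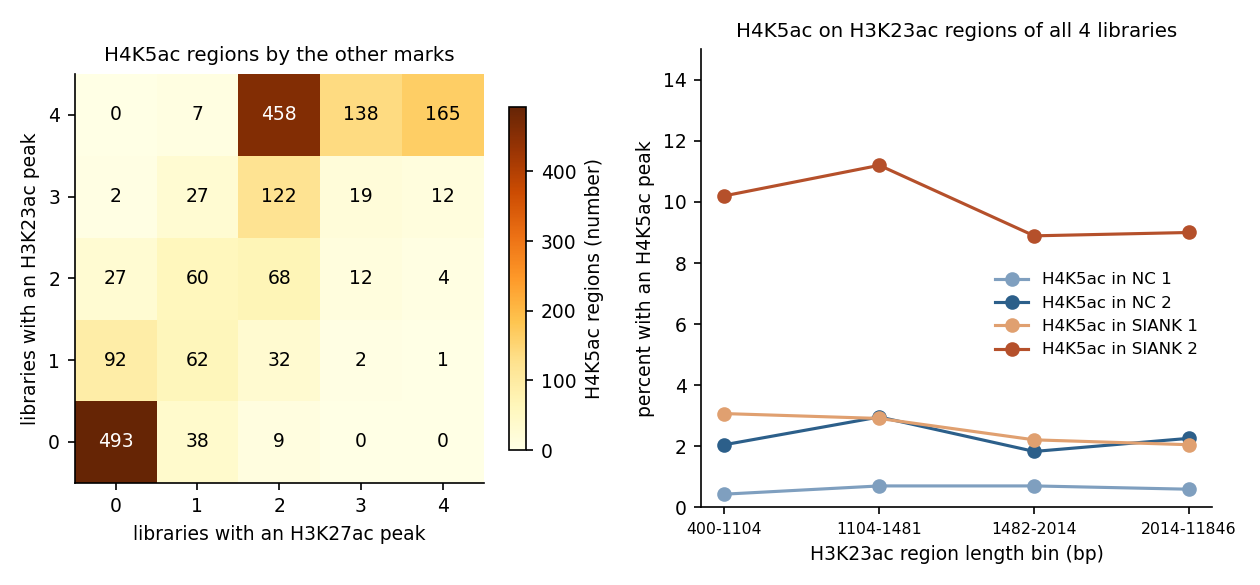
Left, number of merged H4K5ac regions by how many libraries had an H3K23ac peak (vertical) and an H3K27ac peak (horizontal) there; 493 regions had neither and 458 had H3K23ac in 4 and H3K27ac in 2 libraries. Right, percent of constant H3K23ac regions with an H4K5ac peak in each library, by bin of H3K23ac region length in bp; SIANK 2 stays between 8.89 and 11.2%.

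Neither other mark was listed at 493 H4K5ac regions (26.6%). This share was 32.4% of the SIANK-restricted regions, 17.0% of those shared by NC 2 and SIANK 2 alone, 19.8% of those in every list but NC 1, and 17.9% (12 of 67) of those in all 4 lists. It was 36.4% of the regions found in NC 2 alone, 30.0% of those in SIANK 1 alone and 26.7% of those in SIANK 2 alone, so the SIANK-restricted regions lay within the range of the regions of single lists. H4K5ac outside the other marks was therefore also found at places that recurred in every library. In the lists themselves the share was 24.0% and 22.1% in NC and 26.5% and 25.9% in SIANK (exact permutation p = 0.333). Regions without the other marks were somewhat shorter, with a median of 427.0 bp against 484.0 bp for the rest, though 27 reached 1 kb. Their median gap to the nearest H3K23ac region was 33.3 kb (quartiles 14 and 74.8 kb), 13 lay within 1 kb of one, and 93 lay beyond 100 kb.

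The share of H3K23ac regions with H4K5ac was no higher among the longest ones. The 7420 constant H3K23ac regions were divided into 4 equal bins by length, with medians of 914.0, 1282.0, 1709.0 and 2547.0 bp. SIANK 2 had an H4K5ac peak on 10.2%, 11.2%, 8.89% and 9% of them in that order, and NC 2 on 2.05%, 2.96%, 1.83% and 2.26%. SIANK 1 had one on 3.07%, 2.91%, 2.21% and 2.05%, and NC 1 on 0.431 to 0.701%. Per length, SIANK 2 peaks went from 115 per Mb of H3K23ac in the shortest bin to 33.8 in the longest. The bins are set by length, so a nearly even share of regions gives such a fall by construction. H4K5ac peaks on constant H3K23ac lay toward its middle: the peak centre was nearer to the region's centre than to its edge for 88.9% and 84.8% of such peaks in NC and 84.4% and 81.6% in SIANK. For H3K27ac peaks on the same regions these shares were 84.1 to 91.1%. A peak lying inside a region cannot be centred on its edge, which raises such shares.

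H3K23ac peak length was compared at places with and without SIANK-restricted H4K5ac, as a description with no test. Over all constant H3K23ac regions the median log2 ratio of peak length, SIANK over NC, was 0.25, and 77.0% of regions were longer in SIANK. At the 80 constant regions carrying SIANK-restricted H4K5ac the median was 0.15 (70% longer), and at the 32 carrying H4K5ac of all 4 lists it was 0.30 (78.1%). At the 6649 with no H4K5ac in any library it was 0.26. H3K23ac was listed in NC 1, NC 2, SIANK 1 and SIANK 2 at 45.1%, 49.8%, 51.2% and 64.8% of all SIANK-restricted H4K5ac regions. The shares at all merged H4K5ac regions were 51.5%, 51.8%, 54.1% and 66.8%. At both sets H3K23ac was listed most often in SIANK 2, which is also the longest H3K23ac list.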

How the data were processed

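CUT&Tag libraries of H4K5ac (2 NC, 2 SIANK) were analysed, with the H3K23ac and H3K27ac lists as reference places. The authors deposited 1 peak list per library. Per the file headers each peak has a position and a length in bp, with neither score nor read count. Length equals end minus start plus 1, so positions count from 1. BWA and deepTools are named, per the submitters' processing notes. For the peak caller, its threshold and control, and the build, nothing is stated there. The gene table at hand is on GRCr8, and 64 H4K5ac peaks on 10 chromosomes lay beyond its last gene, so no genes or sequences are given. IgG libraries were not analysed here.

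Peaks overlapping by at least 1 bp were merged, and bedtools 2.31.1 gave the same number of regions (1850). Conditions were compared by exact two-sided permutation of labels over libraries (6 arrangements, threshold 0.05). Marks were compared over lists (70 arrangements). Regions are not replicates and carry no p. The scripts were tested on simulated lists with known answers.

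Named regions followed a rule: all NC-restricted, the 10 top-ranked SIANK-restricted and all-4 regions, the 5 largest clusters (ties by shorter span; the other 2 clusters of 5 regions were added after their values were seen), and the 5 longest peaks found in 1 list only. Some are given as counts. Members, lists and rules were chosen with earlier results of these data known. The comparisons between marks, chromosomes, length bins and positions in H3K23ac were added after the files were seen. Alternatives were leaving out each list, a block by replicate number, equal list lengths, a length minimum, autosomes only, merging within 1000 bp, 50% coverage and other neighbour distances. Scripts used scipy 1.17.1, statsmodels 0.14.6, numpy 2.4.6, pandas 2.3.3 and matplotlib 3.10.9 under Python 3.11.15.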

Additional observations from a re-analysis of the deposited data

How the results depend on the processing

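Of 98 values under alternatives, 85 kept their direction and side of the threshold, or lay within 1.5 times the reported count or within the spread over pairs of lists, 11 moved beyond that, 1 changed sign and 1 went to 0. The values at other neighbour distances stand beside that result. No test between conditions could pass 0.05, so keeping its side of the threshold says nothing about stability. The counts moved most. With single lists left out, which loosens the rule, regions restricted to SIANK numbered 223 to 1398 and those restricted to NC 2 to 68. A minimum of 457.0 bp, the pooled median, left 33 NC 1 and 902 SIANK 2 peaks, so few regions could be restricted to NC. It gave 120 SIANK-restricted and 0 NC-restricted regions. Lists of 100 peaks gave 13 and 12, a median nesting of 41.0%, a difference of 6.50 points at constant H3K23ac and of 0 at H3K27ac; chromosomes 1 to 20 alone left 1 NC-restricted region. Why equal lists gave other values was not tested. The replicate numbers are not said to mark a shared culture or day, and with presence per region the NC and SIANK differences between numbers correlated at -0.21. Places without a peak in any list do not enter, and 1185 of the 1850 regions had a peak in SIANK 2 alone. This correlation therefore cannot show whether the numbers mark a shared source. A block by replicate number left the log2 difference in peak number at 2.22 (exact permutation p = 0.5, the smallest it allows), with 0 of 7 results passing. Numbers crossed between conditions, chosen after seeing the data, also gave 0 calls. Unknown depth limits every comparison of list length.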

Other observations

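The X chromosome was outside the analysis of clustering and held 5 and 7 H4K5ac peaks in the NC lists and 8 and 20 in the SIANK lists. On Y, 1 peak was listed in each SIANK library and 0 in each NC library.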
